A study of Mus musculus with 8 samples.

Results

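A set of 8 potassium channel genes of the mouse ascending thoracic aorta were followed across the cell groups of the vessel wall: Kcnma1, Kcnmb1, Kcnj1, Kcnj8, Abcc9, Kcnk3, Kcna5 and Kcnab1. They were picked by gene symbol, as genes known from vascular smooth muscle and its relatives, and each of the 8 symbols matched 1 of the 32285 genes counted. 7 of the 8 had at least 1 unique molecular identifier (UMI, 1 captured transcript molecule). The study measured single cells of the ascending aorta of wild-type mice by droplet 3' RNA sequencing, with 3 hashtag antibodies that mark mice aged 11, 12 and 13 weeks. Each hashtag is read here as 1 animal, so there is 1 mouse per age, no treatment and no other genotype, and no test between ages was possible. The tissue was digested with collagenase and elastase, depleted of dead cells and loaded at about 15000 cells per sample. Strain and sex are not given in the sources used here.

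Smooth muscle tone depends on the membrane potential, because depolarisation opens voltage-gated calcium channels and potassium efflux opposes it. Kcnma1 encodes the pore of the large-conductance calcium-activated (BK) channel, and Kcnmb1 its smooth muscle beta subunit, which raises the calcium sensitivity. Kcnj8 (an inward rectifier) and Abcc9 (a sulfonylurea receptor) form the vascular ATP-sensitive channel, Kcnk3 is an acid-sensitive leak channel of the tandem-pore family, Kcna5 a voltage-gated delayed rectifier and Kcnab1 a cytoplasmic subunit of such channels. Kcnj1 is the inward rectifier of the kidney tubule.

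Cell groups were set by transcripts other than the 8 genes. Barcodes (droplets) with at least 500 genes, at most 20% mitochondrial UMIs and under 10 haemoglobin UMIs were kept, 9939 of 48467 (20.5%). Smooth muscle (SMC) barcodes have Acta2, Tagln and Myh11 at 1.5% of UMIs or more, fibroblast barcodes Dcn at 0.3% or more, endothelial barcodes at least 3 UMIs of Pecam1, Cdh5 and Gpihbp1, and pericyte barcodes at least 2 UMIs of Higd1b, Vtn and Cox4i2. There were 6694 SMC, 1390 fibroblast, 701 endothelial and 82 pericyte barcodes, with median depths of 7323.5, 4522, 2600.0 and 5533.5 UMIs, and 196 leukocyte barcodes served as a background group. Markers outside the rule followed the SMC, fibroblast and endothelial groups: the summed level of 8 smooth muscle markers was 9070 CPM (UMIs per 1000000 UMIs of the group) in SMC barcodes against 911 in fibroblast and 1367 in endothelial barcodes, that of 8 fibroblast markers 19646 CPM in fibroblast against 1594 CPM in SMC barcodes, and that of 8 endothelial markers 5252 CPM in endothelial against 73.6 CPM in SMC barcodes. The pericyte group was mixed, with 7701 CPM of smooth muscle markers beside 5004 CPM of pericyte markers, and 52 of its 82 barcodes also reached the SMC threshold. Rgs5 made up 3250 CPM of the pericyte markers. Cspg4 (159 against 225 CPM) and Mcam (109 against 159 CPM) were lower there than in SMC barcodes, and the rest of the pericyte markers were higher. HTODemux gave a single hashtag to 21.0% of SMC and 20.6% of fibroblast barcodes but to 74.6% of endothelial barcodes, which left 521, 395 and 492 SMC, 122, 73 and 92 fibroblast, 217, 129 and 177 endothelial and 8, 7 and 7 pericyte barcodes in hashtags 1, 2 and 3. The 4 gene expression libraries are pooled in 1 matrix in which a barcode cannot be traced to its library, and 0 barcodes were repeated.

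The genes are spread over 6 chromosomes of the mm10 build (positions from the RefSeq annotation of GRCm38.p6). Kcnma1 (ENSMUSG00000063142) spans chr14:23292288-24005110 and Kcnmb1 (ENSMUSG00000020155) spans chr11:33962955-33973641. Kcnab1 (ENSMUSG00000027827) lies at chr3:64949212-65378225, Kcnk3 (ENSMUSG00000049265) at chr5:30588170-30625270 and Kcnj1 (ENSMUSG00000041248) at chr9:32372418-32399197. Chromosome 6 holds Kcna5 (ENSMUSG00000045534) at chr6:126532551-126535555, Kcnj8 (ENSMUSG00000030247) at chr6:142564837-142571614 and Abcc9 (ENSMUSG00000030249) at chr6:142587862-142702766. The 2 subunit genes of the ATP-sensitive channel are neighbours, 16247 bases apart with 0 protein-coding genes between them.

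The bases just before the gene starts are shown for 4 members whose pooled levels were highest in different groups: Kcnmb1 and Kcnab1 in SMC barcodes, Kcnj8 in pericyte barcodes and Kcna5 in endothelial barcodes. They are given 5' to 3' on the gene's strand, from RefSeq on GRCm38.p6, at chr11:33962763-33962954 (plus strand), chr3:64948962-64949211 (plus), chr6:142571615-142571864 (minus) and chr6:126535556-126535805 (minus). Capitals mark a match to 1 of 3 motifs searched on both strands: the CArG box bound by serum response factor, TATAAA, and CATTCC, the core bound by TEAD factors.
Kcnmb1: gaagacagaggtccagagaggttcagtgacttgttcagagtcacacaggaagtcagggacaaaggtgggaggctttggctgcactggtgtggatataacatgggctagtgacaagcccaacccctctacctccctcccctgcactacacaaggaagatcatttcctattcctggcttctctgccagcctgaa
Kcnab1: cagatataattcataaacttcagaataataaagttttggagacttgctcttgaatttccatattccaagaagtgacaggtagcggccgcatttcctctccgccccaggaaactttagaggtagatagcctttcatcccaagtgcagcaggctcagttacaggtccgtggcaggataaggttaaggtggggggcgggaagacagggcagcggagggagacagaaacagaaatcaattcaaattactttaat
Kcnj8: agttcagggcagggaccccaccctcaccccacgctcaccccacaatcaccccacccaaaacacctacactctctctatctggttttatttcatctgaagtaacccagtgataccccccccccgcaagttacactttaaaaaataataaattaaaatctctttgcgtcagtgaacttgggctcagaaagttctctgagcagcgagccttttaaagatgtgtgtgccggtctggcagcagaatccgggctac
Kcna5: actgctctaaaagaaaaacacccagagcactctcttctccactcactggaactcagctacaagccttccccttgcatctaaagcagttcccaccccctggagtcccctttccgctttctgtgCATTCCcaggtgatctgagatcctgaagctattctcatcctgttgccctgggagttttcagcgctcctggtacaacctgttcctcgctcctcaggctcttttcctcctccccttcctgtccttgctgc
Of these 4 windows, that of Kcna5 holds 1 CATTCC and the others hold no match. RefSeq starts were found for 7 of the 8 members, and over all their windows of 250 bases CATTCC occurred once more, before Abcc9. Among 32851 windows of that length before mouse gene starts, 1.47% hold a CArG box, 12.4% TATAAA and 12.6% CATTCC.

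The members fell into 4 patterns (the plot of levels by animal). Kcnma1, Kcnmb1 and Kcnab1 were higher in SMC than in fibroblast and endothelial barcodes; pericyte sums of Kcnma1, at 93.2 ± 65.3 CPM (mean ± SD, n = 3), spread on both sides of the SMC sums. Kcnj8 and Abcc9 were higher in fibroblast than in SMC barcodes, Kcnk3 was highest in the few pericyte barcodes, and Kcna5 was highest in endothelial barcodes. Kcnj1 was not detected: it had 0 UMIs in all 48467 barcodes, which in SMC barcodes allows a level of up to 0.0604 CPM. That is 3 counts of the total, the rule used wherever a limit is given for a count of 0. A name that calls all 8 channels of vascular muscle therefore matches only some of them here, and they are called the 8 potassium channel genes below.

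**Figure D1:**
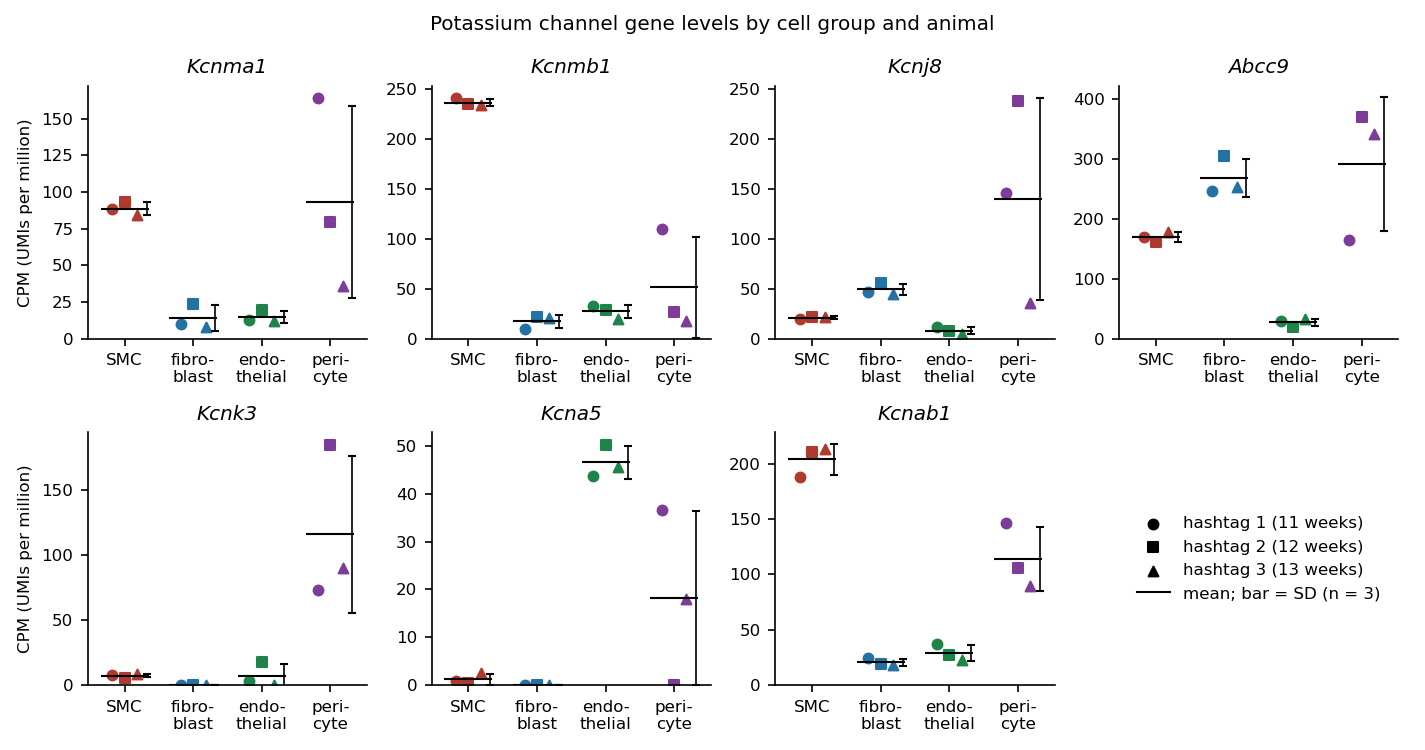
Level of 7 potassium channel genes (y axis, CPM) in the single-hashtag barcodes of each cell group (x axis), 1 symbol per animal, with the mean as a line and the SD as a bar (n = 3). Kcnmb1 lies between 234 and 241 CPM in SMC and between 9.63 and 32.4 CPM in fibroblast and endothelial sums, whereas Kcna5 reaches 43.8 to 50.3 CPM in endothelial sums; pericyte sums hold 7 or 8 barcodes and scatter widely.

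The BK channel pair and Kcnab1 were muscle genes by level. Kcnma1 measured 88.6, 92.9 and 84.4 CPM in the SMC sums of hashtags 1, 2 and 3, 9.63, 23.9 and 8.18 CPM in fibroblast sums, and 13.0, 19.3 and 12.2 CPM in endothelial sums. The SMC sums were above every fibroblast and endothelial sum. Kcnmb1 measured 241, 235 and 234 CPM in SMC sums, against 9.63, 21.2 and 20.5 CPM in fibroblast and 32.4, 29.0 and 19.8 CPM in endothelial sums. Its spread between animals in SMC sums was small, at 236 ± 3.95 CPM (mean ± SD, n = 3), and again no sums overlapped. Kcnab1, the voltage-gated channel subunit, measured 188, 211 and 213 CPM in SMC sums, 24.1, 18.6 and 18.4 CPM in fibroblast sums and 37.3, 27.1 and 22.8 CPM in endothelial sums.

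SMC sums were compared with fibroblast and with endothelial sums, to ask in which wall cells each channel gene is transcribed. The main run of both comparisons used edgeR's quasi-likelihood fit on summed counts with the animal as a block and Benjamini-Hochberg adjustment over all 7824 genes tested. Of the 8 members, 6 passed the filter on low counts; Kcnj1 and Kcnk3 did not, and Kcna5 passed through its endothelial sums, the only ones with 10 or more of its UMIs. Against fibroblasts, 3 members were called higher and 2 lower in SMC sums at an adjusted p under 0.05, where 43.1% of all genes tested were called (20.8% higher in SMC, 22.3% higher in fibroblast). Against endothelial sums, 5 were called higher and 1 lower, where 55.2% of all genes were called (28.9% and 26.3%). With so many genes called in both, the counts themselves say little, and the sizes are given instead. The share of all genes whose sums do not overlap was not counted. Sums that do not overlap are therefore given throughout as a description of the levels only. The median log2 fold change over all genes was -0.02 against fibroblasts and 0.04 against endothelial sums. Both comparisons use the same SMC sums.

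Kcnmb1 was 3.91 ± 0.21 higher in SMC than in fibroblast sums on the log2 scale (± SE, edgeR adjusted p = 6.17e-15) and 3.27 ± 0.17 higher than in endothelial sums (adjusted p = 3.6e-15). For Kcnab1 the differences were 3.33 ± 0.20 (adjusted p = 6.2e-14) and 2.94 ± 0.17 (adjusted p = 2.42e-14) by edgeR. Kcnma1 differed by 2.82 ± 0.25 (adjusted p = 3.08e-10) and 2.73 ± 0.22 (adjusted p = 4.44e-11) by edgeR. Each of these held in 3 of 3 animals, and in every alternative run the 3 genes stayed called with the same sign.

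**Figure D2:**
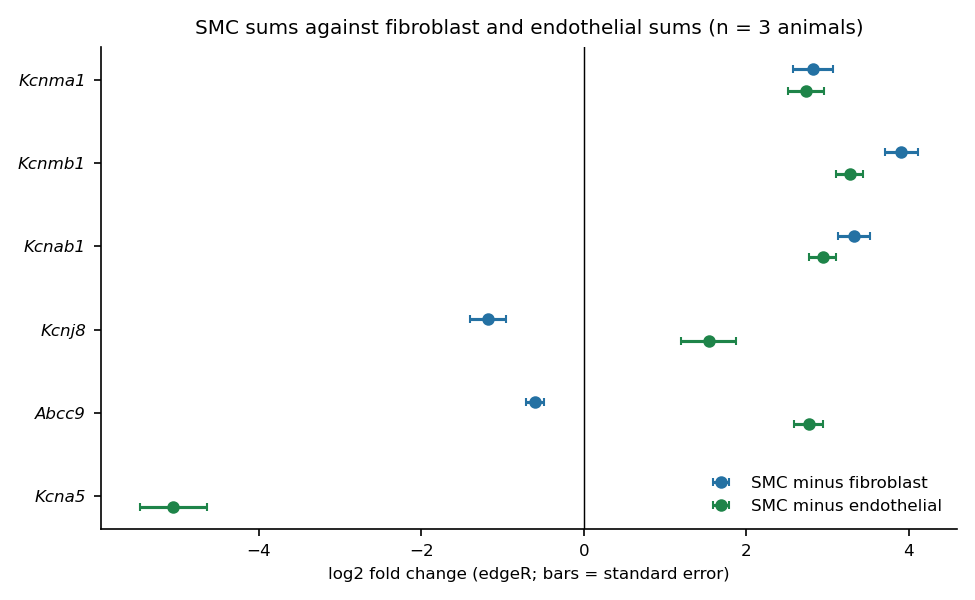
Log2 fold change (x axis, edgeR, bars show the standard error) of SMC sums against fibroblast sums (blue) and endothelial sums (green) for the 6 members tested (y axis), n = 3 animals. Kcnma1, Kcnmb1 and Kcnab1 lie between 2.73 and 3.91 in both comparisons, Kcnj8 and Abcc9 lie on opposite sides of 0, and Kcna5 lies at -5.05 against endothelial sums; its value against fibroblasts, whose 3 sums hold 0 UMIs, is not drawn.

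The UMIs of these 3 genes were set against those of Cnn1 in each group. Cnn1, a smooth muscle contractile gene that the barcode rule did not use, measured 1440 CPM in SMC, 109.9 CPM in fibroblast, 191 CPM in endothelial and 195 CPM in leukocyte barcodes, a cell type that should lack it. Per 100 Cnn1 UMIs there were 16.2 Kcnmb1 UMIs in SMC, 17.6 in fibroblast, 13.3 in endothelial and 20.1 in leukocyte barcodes, and the exact 95% counting intervals of the last 3 all take in the SMC value. For Kcnab1 the ratios were 14.1, 18.4, 15.8 and 18.7, and that of fibroblast barcodes (95% interval 15.2 to 22.1) lay above the SMC value. For Kcnma1 they were 6.26, 9.59, 6.42 and 7.19, with the fibroblast value (7.41 to 12.3) again above. The intervals cover counting error only, and the source of the UMIs outside the SMC group was not tested.

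**Figure D3:**
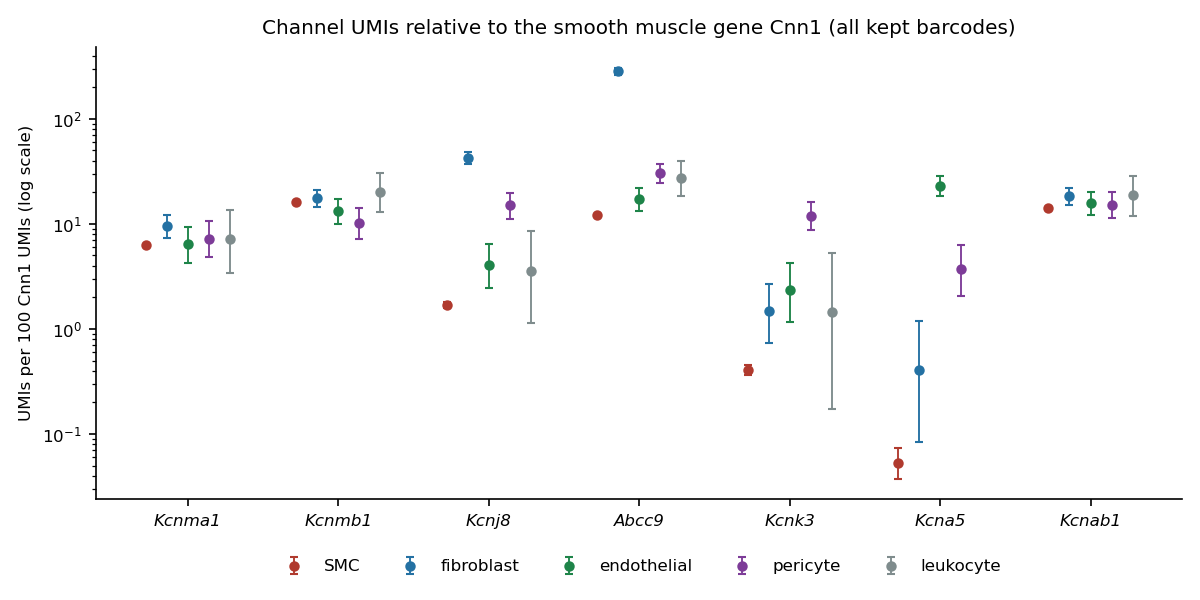
UMIs of each channel gene per 100 Cnn1 UMIs (y axis, log scale) in all kept barcodes of 5 cell groups, with 95% counting intervals; groups with 0 UMIs are not drawn. Kcnma1, Kcnmb1 and Kcnab1 stay between 6.26 and 20.1 in every group, whereas Abcc9 goes from 12.2 in SMC to 283 in fibroblast barcodes and Kcna5 from 0.0531 in SMC to 22.9 in endothelial barcodes.

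A group of 88 fibroblast barcodes carried a large part of the UMIs of these genes in the fibroblast group. Fibroblast subcluster 4, led by Rgs5, Myom1, Npnt and Itga8 and holding Myh11 and Tagln among its 10 leading genes, had 6.33% of the fibroblast barcodes but 50.7% of their Kcnma1, 40.0% of their Kcnmb1 and 36.0% of their Kcnab1 UMIs. It held 29.1% of their Cnn1 UMIs. Without it, an alternative added after the data were seen, the number of members called against fibroblasts was 5, as with it, but the log2 fold change of Kcnma1 went from 2.82 to 4.12, that of Kcnmb1 from 3.91 to 4.78 and that of Kcnab1 from 3.33 to 3.69.

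The ATP-sensitive channel genes were not muscle genes above all. Kcnj8, the pore, measured 19.4, 21.7 and 21.4 CPM in SMC sums, 46.5, 55.7 and 45.0 CPM in fibroblast sums and 11.4, 7.74 and 4.56 CPM in endothelial sums. Abcc9, its receptor subunit, measured 170.1, 161 and 178 CPM in SMC, 247, 305 and 254 CPM in fibroblast and 29.2, 19.3 and 31.9 CPM in endothelial sums. For both genes every fibroblast sum was above every SMC sum, and every SMC sum above every endothelial sum. In SMC sums Kcnj8 was lower than in fibroblast sums by 1.18 on the log2 scale (log2 fold change -1.18 ± 0.22, edgeR adjusted p = 7.91e-05) and Abcc9 by less (-0.60 ± 0.11, adjusted p = 8.54e-05). Against endothelial sums Kcnj8 was 1.54 ± 0.34 higher (edgeR adjusted p = 0.000384) and Abcc9 2.77 ± 0.18 higher (adjusted p = 2.18e-13) in SMC.

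The fibroblast difference changed with how barcodes were given to animals. With the stricter ratio caller, which left 42, 35 and 32 fibroblast barcodes, Kcnj8 measured 13.8, 23.9 and 24.1 CPM in fibroblast and 12.0, 16.3 and 20.5 CPM in SMC sums, and Abcc9 measured 193, 134 and 193 CPM in fibroblast and 169, 141 and 163 CPM in SMC sums. The sums then overlapped, and neither gene was called (edgeR adjusted p = 0.785 and 0.936). The makeup of the groups moved too: fibroblast subcluster 5 (led by Upk3b, Myl7 and Muc16), where Abcc9 was at 18.1 CPM, went from 5.57% to 13.8% of the fibroblast barcodes tested, and SMC subcluster 5 (led by Ighm, Igkc and Cd74) from 4.33% to 11.8% of the SMC barcodes. Their part in the lost calls was not tested. Over all barcodes, with no animal assigned, Abcc9 was at 311 CPM in 1390 fibroblast barcodes (95% interval 298 to 324) and 176 CPM in 6694 SMC barcodes (173 to 180.1), and Kcnj8 at 46.8 CPM (41.8 to 52.2) against 24.3 CPM (23.0 to 25.8). Fibroblast barcodes with no hashtag, with several and with 1 all showed the higher level: Kcnj8 was at 46.4, 46.2 and 48.4 CPM and Abcc9 at 325, 321 and 264 CPM.

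Abcc9 and Kcnj8 lay further from their SMC ratio to Cnn1 in fibroblast barcodes than Kcnma1, Kcnmb1 and Kcnab1 did. Per 100 Cnn1 UMIs, Abcc9 had 12.2 UMIs in SMC, 17.1 in endothelial and 27.3 in leukocyte barcodes but 283 in fibroblast barcodes (95% interval 260.0 to 308). Kcnj8 had 1.69 in SMC, 4.07 in endothelial and 3.60 in leukocyte barcodes but 42.6 in fibroblast barcodes (37.2 to 48.6). At an equal depth of 1500 UMIs per barcode, with 26 fibroblast and 16 SMC barcodes too shallow left out, Abcc9 was seen in 34.5% of fibroblast, 22.8% of SMC, 4.02% of endothelial and 4.15% of leukocyte barcodes. Kcnj8 was seen in 6.82%, 3.804%, 1.04% and 0.518%. At full depth the Abcc9 shares were 57.8%, 64.5%, 8.42% and 12.2%, an order that is also that of the groups' median depths.

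In the 3 largest fibroblast subclusters the 2 genes had the same order. Clusters were built without the members and are given by number and leading genes, as a description with no test. Subcluster 2 (397 barcodes, led by Hhip, Phex, Gfra2 and Fmod) had Kcnj8 at 109 CPM (93.6 to 125) and Abcc9 at 519.6 CPM (486 to 555). Subcluster 1 (497 barcodes, led by Sfrp1, Igfbp3 and Gpx3) had 39.6 and 399 CPM, and subcluster 3 (343 barcodes, led by Akr1c18, Pla1a and Sema3c, with Cd248 and Dpp4) had 6.83 and 101 CPM. The smaller subclusters did not keep that order: subcluster 4 had Kcnj8 at 49.0 and Abcc9 at 311 CPM, subcluster 5 had 22.6 and 18.1 CPM from 5 and 4 UMIs, and subcluster 6 had 12.2 and 36.7 CPM from 2 and 6 UMIs. Abcc9 kept the order of subclusters 1 to 3 in each animal. Kcnj8 kept it in hashtags 1 and 2, but in hashtag 3 its values in subclusters 1 and 3 were level, from 2 and 4 UMIs. In hashtags 1, 2 and 3, Kcnj8 was at 118, 79.4 and 121 CPM in subcluster 2, at 28.3, 32.3 and 23.2 CPM in subcluster 1 and at 15.3, 9.41 and 22.9 CPM in subcluster 3. Abcc9 was at 493, 589.7 and 539.6 CPM in subcluster 2, at 323, 452 and 243 CPM in subcluster 1 and at 71.4, 75.3 and 132 CPM in subcluster 3. Those sums hold 19 to 41 barcodes each, and a Kcnj8 value there stands for 1 to 16 UMIs.

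Among the SMC barcodes the same pair stood highest in a small subcluster. SMC subclusters 1 (3382 barcodes, led by Acan, Egr1 and Vcam1) and 2 (2637 barcodes, led by Psd, Tnnt2 and Bmp3) together hold most of the group and were alike in Kcnma1, at 90.1 and 90.8 CPM. They differed modestly in Abcc9, at 187 and 158 CPM, and Kcnj8, at 25.6 and 18.7 CPM. In subcluster 6 (84 barcodes, led by Rgs5, Tshz2 and Grem1) Kcnj8 was at 106 CPM, Abcc9 at 321 CPM, Kcnk3 at 57.1 CPM and Kcnma1 at 185 CPM (149 to 226), while Kcnab1 was at 72.8 CPM (51.3 to 100.3), below the other SMC subclusters. Its pericyte markers summed to 12252 CPM, of which Rgs5, a leading gene of the subcluster, made up 11575 CPM, while the pericyte marker Notch3 had 0 UMIs there against 436 CPM in pericyte barcodes. Its smooth muscle markers summed to 10670.4 CPM. Subcluster 4 (190 barcodes, led by Adamtsl1, Prrx2 and Sfrp2) had Kcnj8 at 56.6 CPM. These small subclusters held too few barcodes per animal, 2 to 12, for values by animal.

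**Figure D4:**
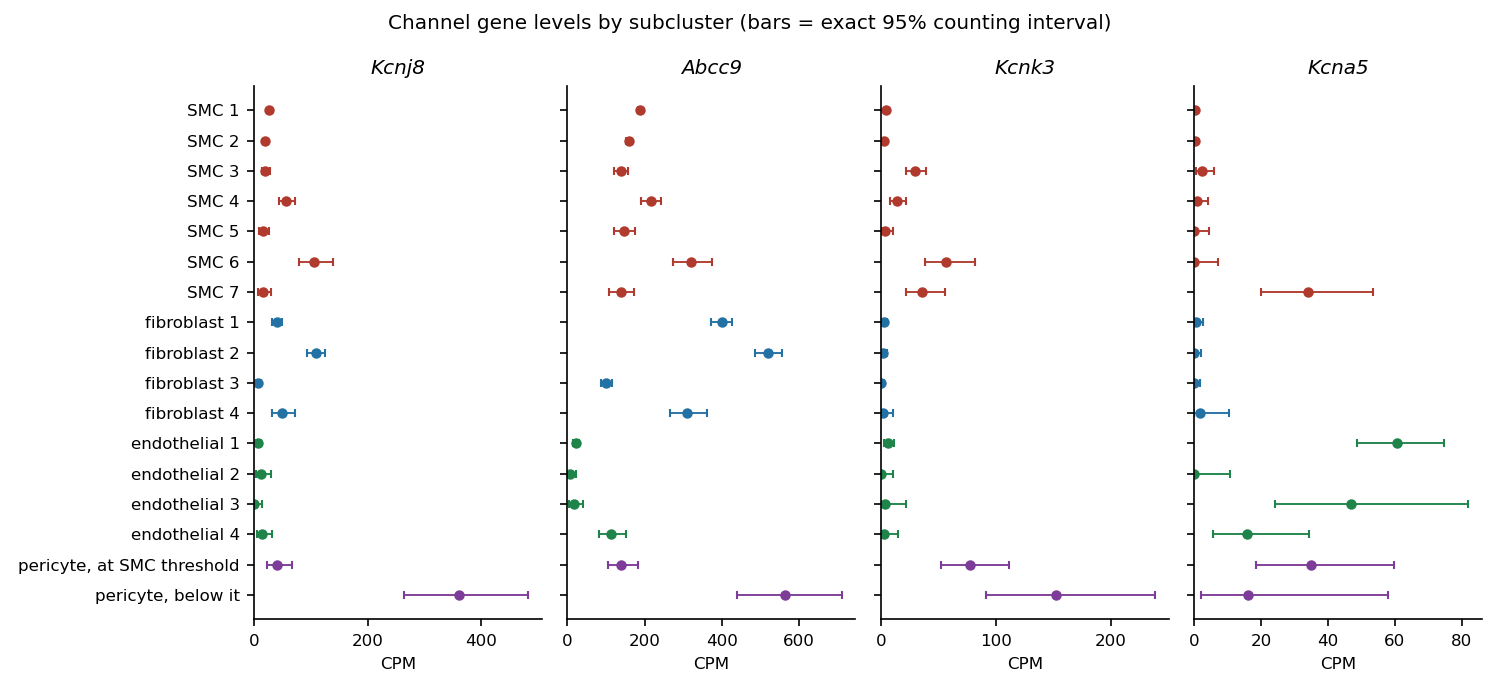
Level (x axis, CPM, own scale in each panel) of Kcnj8, Abcc9, Kcnk3 and Kcna5 in the larger subclusters of SMC, fibroblast and endothelial barcodes and in pericyte barcodes at and below the SMC threshold (y axis), all kept barcodes, with exact 95% counting intervals. Kcnj8 and Abcc9 peak in pericyte barcodes below the SMC threshold (361 and 562 CPM) and in fibroblast subcluster 2. For Kcnj8, SMC subcluster 6 (106 CPM, 79.8 to 139) is level with fibroblast subcluster 2 (109 CPM, 93.6 to 125). Kcna5 peaks in endothelial subclusters 1 and 3, followed by pericyte barcodes at the SMC threshold (34.9 CPM) and SMC subcluster 7 (33.9 CPM).

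Pericytes, the mural cells of small vessels, were too few for the planned test, which asked for sums of at least 10 barcodes. Over all 82 barcodes Kcnk3 was at 96.5 CPM (95% interval 71.2 to 128), 16.5 times the 5.85 CPM (5.20 to 6.57) of SMC barcodes. Kcnj8 was at 121 CPM (92.1 to 155), 4.96 times the SMC level, and Abcc9 at 245 CPM (204 to 293). Kcnmb1, at 82.5 CPM (59.2 to 112), and Kcnab1, at 123 CPM (93.8 to 158), were below SMC barcodes. With at most 10% mitochondrial UMIs, 24 pericyte barcodes remained, with Kcnk3 at 104.9 CPM against 6.001 CPM in SMC barcodes and Kcnj8 at 83.9 against 24.1 CPM. Abcc9, at 168 against 177 CPM, and Kcnma1, at 94.4 against 90.05 CPM, then changed their order between pericyte and SMC barcodes. At 1500 UMIs per barcode Kcnk3 was seen in 14.6% of pericyte barcodes (7.80 to 24.2%) against 0.794% of SMC, 0.147% of fibroblast and 0.446% of endothelial barcodes, and in 0 of 193 leukocyte barcodes, which allows up to 1.55%.

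The mixed makeup of the pericyte group split the members. In the 30 pericyte barcodes below the SMC threshold Kcnj8 was at 361 CPM (264 to 484) and Abcc9 at 562 CPM (438 to 710.3), and Kcnk3 at 153 CPM (91.9 to 238). Kcnmb1 there was at 48.2 CPM (17.7 to 105) from 6 UMIs and Kcnma1 at 24.1 CPM (4.97 to 70.4) from 3 UMIs. In the 52 at the SMC threshold, where Cnn1 was at 1028 CPM against 137 CPM in the other 30, Kcnj8 was at 40.2 CPM (22.5 to 66.4), Abcc9 at 139.5 CPM (104 to 183) and Kcnk3 at 77.8 CPM (52.1 to 112). The channel pore Kcnj8 thus differed between these barcodes beyond counting error, whereas the counting intervals of Kcnk3 overlapped.

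A fit with pericyte sums of at least 5 barcodes was added after the data were seen. The sums gave Kcnk3 at 73.1, 184.8 and 89.9 CPM from 4, 7 and 5 UMIs, against 7.38, 5.68 and 8.12 CPM in SMC sums, and Kcnj8 at 146, 238 and 35.9 CPM from 8, 9 and 2 UMIs. Every pericyte sum lay above every SMC sum for both genes. Of 7 members tested, 2 were called higher and 2 lower in pericyte sums, where 8.89% of 8350 genes were called (2.87% higher in pericyte, 6.01% higher in SMC). The median of all genes in this fit was -0.32, and the values below stand beside that shift. Kcnk3, which did not pass the filter in the fit without pericyte sums and so entered through the group where it is high, was 3.44 ± 0.63 higher (a description for that reason; log2, edgeR adjusted p = 4.46e-05) and Kcnj8 2.17 ± 0.45 higher (adjusted p = 0.000361). Kcnmb1, at -2.58 ± 0.40 (edgeR adjusted p = 1.44e-06), and Kcnab1, at -1.28 ± 0.32 (adjusted p = 0.00353), were lower. The Kcnj8 call was lost without hashtag 2 (adjusted p = 0.0691) and the Kcnab1 call without hashtag 3 (adjusted p = 0.142), both by edgeR, and Kcnab1 also with DESeq2 (adjusted p = 0.0811). Abcc9, Kcnma1 and Kcna5 were not called.

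Kcnk3 UMIs of the SMC group were unevenly placed. Subclusters 1 and 2 had 4.20 and 3.15 CPM, whereas subcluster 6 had 57.1 CPM (38.2 to 81.9), subcluster 7 (84 barcodes, led by Cd36, Fabp4 and Olfr558) 35.8 CPM (21.5 to 55.9) and subcluster 3 (215 barcodes, led by Lum, Apoe and Dcn) 29.96 CPM (22.3 to 39.4). Subcluster 3 was at 34.2, 29.5 and 40.8 CPM in the 3 animals, from 9, 3 and 3 UMIs. The fibroblast group, whose genes lead subcluster 3, had Kcnk3 at 1.63 CPM (0.815 to 2.92) over all its barcodes and 0 UMIs in each of its 3 sums. Endothelial barcodes had 4.50 CPM (2.25 to 8.06), with 3.24, 17.4 and 0 CPM in the 3 sums, which span the SMC values. With no filter on low counts, SMC and endothelial sums differed in Kcnk3 by 0.44 ± 0.50 (log2, edgeR adjusted p = 0.633). That fit called Kcnk3 higher in SMC than in fibroblast sums (edgeR adjusted p = 7.44e-05). No fold is given because the fibroblast sums are at 0. Its p-values are not on the scale of the fit with the filter. For Kcnmb1 against fibroblasts it gave an edgeR adjusted p of 3.25e-82, where the fit with the filter gave 6.17e-15.

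Kcna5, known as a voltage-gated channel of vascular muscle, was highest in endothelial barcodes here. It measured 43.8, 50.3 and 45.6 CPM in endothelial sums from 27, 26 and 30 UMIs, and 0.738, 0.334 and 2.43 CPM in SMC sums from 3, 1 and 9 UMIs. The 3 fibroblast sums held 0 UMIs. No sums overlapped between endothelial and SMC barcodes, and the log2 fold change of SMC against endothelial sums was -5.05 ± 0.42 (edgeR adjusted p = 1.32e-10), lower in 3 of 3 animals. Because the gene passed the filter through its endothelial sums, that test is a description and adds nothing to the levels. Against fibroblasts no fold is given, since fibroblast sums were at 0 and SMC sums held 13 UMIs in all (edgeR adjusted p = 0.206). At 1500 UMIs per barcode, Kcna5 was seen in 7.59% of endothelial (5.70 to 9.86%) and 0.165% of SMC barcodes, and in 0 of 193 leukocyte barcodes, which allows up to 1.55%.

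Within the endothelium, Kcna5 was highest where Gpihbp1 was high and not detected where Vwf was high. Endothelial subcluster 1 (520 barcodes, led by Cfd, Car3 and Lyz2, with Gpihbp1, a capillary lipase anchor, at 2598 CPM) had 60.8 CPM (48.8 to 74.8), and subcluster 3 (62 barcodes, led by the cell cycle genes Hist1h2ap, Cenpf and Mki67) had 46.9 CPM (24.2 to 81.9) with Gpihbp1 at 1872 CPM. Subcluster 2 (63 barcodes, led by Cytl1, Sfrp1 and Bmp4, with Vwf, a protein of large-vessel endothelium, at 940.2 CPM) had 0 Kcna5 UMIs, which allows up to 8.79 CPM, and Gpihbp1 at 5.86 CPM. Subcluster 4 (56 barcodes, led by Ccl21a, Mmrn1 and Lyve1) had 15.8 CPM (5.79 to 34.3) with Gpihbp1 at 683 CPM. In the 3 animals subcluster 1 was at 55.4, 85.4 and 55.5 CPM and subcluster 2 at 0 UMIs in 14, 11 and 25 barcodes. Gpihbp1 is part of the endothelial rule, Kcna5 is not. The endothelial subcluster 1 also led with transcripts of fat cells and macrophages, and their part in the result was not tested.

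Many of the few Kcna5 UMIs of the SMC group sat in 1 subcluster. SMC subcluster 7 held 18 of the 38 UMIs (47.4%) in 84 barcodes, at 33.9 CPM (20.1 to 53.6), against 0.362 and 0.292 CPM in SMC subclusters 1 and 2. Its endothelial markers summed to 461 CPM, against 73.6 CPM over all SMC barcodes and 5252 CPM in endothelial barcodes, and Kdr was among its leading genes. Pericyte markers were also raised there, at 1482 CPM against 981 CPM over all SMC barcodes. Of these, Notch3 was at 156 CPM against 15.5 CPM, and Ndufa4l2 was among the leading genes. In pericyte barcodes Kcna5 was at 30.2 CPM (16.9 to 49.8), beside endothelial markers of 141 CPM with Kdr and Tie1 at 0. It had 0 UMIs in the 24 pericyte barcodes with at most 10% mitochondrial UMIs. Those hold too few UMIs in all to set that 0 apart from 30.2 CPM. The part of endothelial transcripts in either value, and of pericyte transcripts in that of SMC subcluster 7, was not tested.

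SMC barcodes were also split by 2 sets of known regional genes, Tnnt2 and Ptprz1 against Pln, by which of them had more UMIs in the barcode, and no member was called different between the sides. Kcnmb1 measured 242, 243 and 236 CPM on the Tnnt2 and Ptprz1 side and 217, 235 and 227 CPM on the Pln side. Kcnab1 measured 193, 208 and 217 CPM against 183, 219 and 217 CPM, and Abcc9 165, 155 and 176 CPM against 154, 169.6 and 148 CPM. Kcnma1 measured 90.3, 89.8 and 85.8 CPM against 70.9, 120.4 and 42.3 CPM. Of 5 members tested 0 were called (0 at an unadjusted edgeR p under 0.05 and 0 by DESeq2), where 0.256% of 8603 genes were called (0.139% higher on the Tnnt2 and Ptprz1 side, 0.116% higher on the Pln side). Tnnt2, Ptprz1 and Pln, which define the split, were not taken out of these shares. Pln was sparse: in SMC subcluster 1 it had 1305 UMIs in 3382 barcodes, against 7174 UMIs of Ptprz1. The side of a barcode can thus rest on very few UMIs, and how well the split separates regional cells was not tested. The lack of calls therefore does not show that regional SMC are alike in these genes. The log2 differences were 0.08 ± 0.14 for Kcnmb1, -0.01 ± 0.14 for Kcnab1, 0.06 ± 0.16 for Abcc9, 0.20 ± 0.24 for Kcnma1 and -0.31 ± 0.44 for Kcnj8. The first side held 384, 280 and 365 barcodes and the Pln side 33, 26 and 27. With so few genes called, an adjusted p under 0.05 needs a difference of several SEs. Differences well above these SEs could therefore also have gone uncalled.

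Among the other potassium channel genes, 98 of 99 listed symbols, the members included, were in the file, and 24 of the 98 had at least 100 UMIs in the 4 groups. The inward rectifier Kcnj15 had 6069 UMIs in SMC barcodes (122 CPM), whereas Kcnj2 had 4. Without the members, 7 listed genes were tested against fibroblasts, of which 5 were called higher and 1 lower in SMC sums (20.8% and 22.3% of all genes), with a median log2 fold change of 1.97. Against endothelial sums 5 were called higher and 0 lower (28.9% and 26.3% of all genes), with a median of 2.66. Kcnj15 was 3.04 ± 0.21 higher than in fibroblast and 2.93 ± 0.19 higher than in endothelial sums by edgeR. The ERG channel Kcnh2 was 2.84 ± 0.43 and 2.76 ± 0.38 higher, the potassium channel interacting protein Kcnip4 2.50 ± 0.53 and 2.38 ± 0.47 higher, and the A-type channel Kcnd3 0.89 ± 0.33 and 3.37 ± 0.47 higher. The sodium-activated channel Kcnt2 was lower in SMC than in fibroblast sums by 1.35 (log2 fold change -1.35 ± 0.24). Kcnj15 had 0 UMIs in the pericyte sums, at least 6.36-fold lower than in SMC sums against a floor of 3 counts over the 3 pericyte sums, but 19 UMIs (38.2 CPM) over all 82 pericyte barcodes.

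Genes of calcium and cyclic nucleotide signalling, which act on these channels, were counted against the same shares of all genes (20.8% higher and 22.3% lower in SMC against fibroblasts, 28.9% and 26.3% against endothelial sums). Of 10 calcium entry and release genes tested, 7 were called higher and 1 lower in SMC than in fibroblast sums (median log2 fold change 1.70), and 9 higher and 1 lower against endothelial sums (median 2.45). The ryanodine receptor Ryr2, whose calcium sparks open BK channels, was 3.33 ± 0.30 and 3.02 ± 0.26 higher in SMC, the junctional protein Jph2 3.21 ± 0.22 higher than in fibroblasts and the calcium channel subunit Cacnb2 2.90 ± 0.32 and 3.25 ± 0.31 higher. The IP3 receptor Itpr2 was lower in SMC, at -2.79 ± 0.27 and -4.23 ± 0.19. Of 17 cyclic nucleotide genes tested, 10 were called higher and 3 lower against fibroblasts (median 0.82) and 8 higher and 5 lower against endothelial sums (median 0.19). The receptor partner Ramp2, the scaffold Akap12 and the prostaglandin receptor Ptger4 were lower in SMC in both, at -5.66 ± 0.19, -4.67 ± 0.19 and -4.20 ± 0.91 against fibroblasts and -7.29 ± 0.16, -4.07 ± 0.19 and -7.58 ± 0.46 against endothelial sums, whereas Ramp1 was 3.59 ± 0.16 higher than in fibroblasts. In the added pericyte fit Akap12 was 3.76 ± 0.42 and Gucy1a2, a subunit of the nitric oxide receptor, 3.15 ± 0.73 higher than in SMC, the natriuretic peptide receptor Npr1 (-1.89 ± 0.60) and Ramp1 (-1.21 ± 0.22) were lower, and none of 12 calcium genes was called by edgeR.

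The genes most like each member over the 12 sums of group and animal were found by Pearson's r of log2(CPM + 10), over 10907 genes with at least 50 UMIs. Kcnab1 was closest to Cnn1 (r = 0.9901), Cspg4 (0.985) and Acta2 (0.984), 2 of them contractile genes of smooth muscle. Acta2 is part of the SMC rule, so likeness to it adds nothing to the SMC levels of Kcnab1. Cnn1 is not part of the rule. Kcnma1 was closest to Rbm24, an RNA-binding splicing regulator of muscle (0.967), and Kcnmb1 to Ctnna3, a catenin of cell junctions (0.953). Abcc9 was closest to Epdr1 (0.982) and Col6a2, a collagen VI chain (0.980), and Kcnj8 to Angptl2, a secreted glycoprotein (0.986). Kcna5 was closest to Spaar (0.982), and Kcnk3 to Aasdh (0.985). The sums share animals and library, and the 3 pericyte sums of 7 or 8 barcodes are among them. The next genes were Map3k7cl (0.965) and Ccdc107 (0.959) for Kcnma1, Gm45670 (0.946) and Tnnt2 (0.943) for Kcnmb1, Selenof (0.963) and Zfp354c (0.961) for Kcnj8, Gpx8 (0.976) for Abcc9, Maoa (0.974) and Mdn1 (0.970) for Kcnk3, and Jun (0.973) and Tnfaip1 (0.971) for Kcna5.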

How the data were processed

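The authors deposited 1 matrix of raw UMI counts per gene and hashtag for 48467 barcodes, with no normalization; per the file headers the software was Cell Ranger 6.0.1, and the submitters' processing notes list mm10 and Seurat 4.0.5. Their gene annotation is not given. The match of hashtags to ages came from the deposited hashtag reference. The 8 genes and the gene lists were chosen with earlier results of these data known. From the counts, CPM were computed on total UMIs, with exact Poisson 95% intervals that cover counting error only; shares have exact binomial ones. Hashtags were called with HTODemux (Seurat 5.3.0, quantile 0.99). 405 barcodes in more than 1 group were dropped, which with the removal of barcodes with several hashtags from tests was the treatment of doublets; no doublet caller was run. Counts were summed per animal and group (at least 10 barcodes) and tested with edgeR 4.0.16 (TMM, filterByExpr, quasi-likelihood, animal as a block, adjusted p under 0.05), with DESeq2 1.42.0 as an alternative. SMC, fibroblast and endothelial sums shared a fit; the planned pericyte test was not run because its sums hold 7 or 8 barcodes, and the pericyte fit at 5 barcodes was added. SMC sums of the 3 animals differed beyond counting error (chi-square per degree of freedom 1.42 to 1.77). The hashtag pairs the sums because the groups come from the same animals. Named genes were the members, the 4 genes called with the largest change in each list, the potassium channel genes called and the 3 genes most like each member; 1 called channel gene is not reported here. Subclusters were made with scanpy 1.11.5 (Leiden). On simulated counts (7103 genes, SMC against fibroblast sums) 54% of genes changed by 1 and 91% of genes changed by 2 on the log2 scale were recovered. The simulation set a fixed spread, no differences between animals and the same profile in all groups apart from the changed genes. Its shares therefore do not give the recovery in the real sums. Depth was 2993304 to 4063165 UMIs in SMC, 376850 to 623142 in fibroblast and 516862 to 658171 in endothelial sums. p-values rest on how the group differences vary over 3 animals of different age, because the block takes out each animal's own level. That spread is estimated over all groups in a fit.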

Additional observations from a re-analysis of the deposited data

How the results depend on the processing

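Among alternatives, 255 member fold changes kept their direction and side of the threshold. The exceptions among called members are the Kcnj8 and Abcc9 differences from fibroblasts under the stricter ratio caller (log2 -0.24 and -0.027), under which 3 members were called, and in the added pericyte fit Kcnj8 without replicate 2 (1.70) and Kcnab1 without replicate 3 (-1.01) and with DESeq2 (-1.06); DESeq2 also called Kcna5 (3.89). Against fibroblasts Kcna5, not called, turned to -0.84 with the ratio caller. At most 10% mitochondrial UMIs left 2046 genes called against fibroblasts and 2383 against endothelial sums. The pericyte fit called 493 genes with only its 2 groups and 386 to 633 leaving out 1 replicate, where Kcnma1 ranged from -1.04 to 0.12. Between the SMC sides DESeq2 called 12 genes, no filter 48, and leaving out 1 replicate 5 to 42, with Kcnma1 from -0.029 to 0.60, Kcnj8 from -0.67 to 0.040 and Kcnab1 from -0.036 to 0.035; Kcnab1 was 0.091 with no filter and 0.29 at 10% mitochondrial UMIs. Without the replicate block, which pairs sums of the same animal, 3462 genes were called against fibroblasts, 4405 against endothelial sums and 21 between the sides, and 5, 6 and 0 members, as with it. The cause of these changes was not tested. Pericyte alternatives whose sums missed the minimum, and the planned pericyte test, were not run. Kcnk3 and Kcna5 rest on few UMIs outside the group where each is highest.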
